A study of Rattus norvegicus with 3 samples.

Results

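Immediate early genes are the genes that neurons switch on first after a burst of activity. Here 46 genes listed as immediate early or activity-induced were examined by name. Among them were Jund, which is constitutively made, and Creb1 and Srf, which act on the other genes. Of the 46 names, 45 matched exactly 1 row each among the 30957 genes of the deposited tables, and Ier2 matched none. They were measured as messenger RNA in the motor cortex of 3 male Sprague-Dawley rats, labelled 12, 24-4 and 33, with 1 library per rat. All 3 rats had cerebral ischemia, a loss of blood flow to the brain, followed by reperfusion, and all had electroacupuncture at the acupoint GB20 (Fengchi). The labels give a time of 8 weeks without naming its starting point, and the interval between the last stimulation and the taking of the tissue is not given in the sources used here. The rats form 1 group, so levels and their variation among treated animals could be described, and no treatment effect can be estimated. Values for single rats are always given in the order 12, 24-4, 33.

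Calcium that enters an active neuron starts kinase cascades, which act on CREB, a factor that binds the cyclic AMP response element, and on SRF, a factor that binds the CArG box. Immediate early genes that respond through these elements are transcribed within minutes and without new protein synthesis, but holding an element does not by itself make a gene one of them. Some encode fast transcription factors of the AP-1 (Fos and Jun), EGR, NR4A and KLF families, and others encode effectors that change synapses, end kinase signalling or act in growth arrest and stress. In cortex the former are widely used as markers of recently active neurons, but many of them also respond to growth factors, injury and handling in glia and vessels.

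The sequences that the first step of this pathway reads are shown for members that hold them. RefSeq promoters of build GRCr8 were matched for 33 of the 46 names, 32 by symbol and Cyr61 through its current symbol Ccn1, and the 250 bases before each start were searched on both strands. Not matched were Fos, Jun, Egr3, Arc, Nr4a3, Ier3, Dusp4, Nptx1, Nptxr, Klf2, Klf10, Atf3 and Trib1. The CArG box, in which 6 bases of A or T stand between CC and GG, was found in 5 members (15.2%), against 1.62% of the 27457 genes in the table and 1.23% of the 9459 matched genes whose FPKM averaged 1 or more here. FPKM is a fragment count scaled to the length of the gene and the size of the library. The windows of these 5 members follow, 5′ to 3′ on the gene's strand, with CArG boxes and TGACG or its reverse complement CGTCA in capitals.
Egr1 (chr18:26736943-26737034, plus strand): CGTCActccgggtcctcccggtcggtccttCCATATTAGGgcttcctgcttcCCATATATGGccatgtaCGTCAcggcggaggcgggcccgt
Egr2 (chr20:21054485-21054554, minus strand): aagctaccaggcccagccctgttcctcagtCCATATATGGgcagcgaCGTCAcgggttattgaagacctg
Srf (chr9:21923965-21924054, plus strand): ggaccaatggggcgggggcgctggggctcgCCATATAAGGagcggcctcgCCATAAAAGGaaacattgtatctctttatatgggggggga
Dusp5 (chr1:262543662-262543741, plus strand): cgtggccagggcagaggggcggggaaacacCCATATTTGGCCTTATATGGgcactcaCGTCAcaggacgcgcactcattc
Klf6 (chr17:69458640-69458709, minus strand): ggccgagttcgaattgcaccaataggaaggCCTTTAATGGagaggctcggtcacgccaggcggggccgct

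Egr1, Srf and Dusp5 each held 2 CArG boxes. In Egr1 they ended 95 and 73 bases before the start, in Srf 71 and 51, and in Dusp5 72 and 62, where they lie side by side. Egr2 held 1, ending 73 bases before its start, and Klf6 held 1, ending 191 bases before.

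The full cyclic AMP response element, TGACGTCA, was found in 7 of the 33 members (21.2%), against 1.78% of all genes in the table and 2.97% of the expressed ones just defined. Crem held it before 2 of its starts. Its shorter form TGACG, which also counts each full element, stood in 22 members (66.7%), against 20.0% and 28.9%. The windows below carry the full element in capitals, and that of Nr4a1, which has no full element, carries 4 copies of CGTCA.
Dusp1 (chr10:17184699-17184766, plus strand): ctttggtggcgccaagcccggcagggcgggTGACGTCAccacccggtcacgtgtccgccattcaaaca
Plk2 (chr2:43702440-43702507, plus strand): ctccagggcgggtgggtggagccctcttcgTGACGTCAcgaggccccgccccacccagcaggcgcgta
Jund (chr16:18769955-18770021, minus strand): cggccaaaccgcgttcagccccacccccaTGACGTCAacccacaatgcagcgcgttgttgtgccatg
Maff (chr7:112792706-112792773, plus strand): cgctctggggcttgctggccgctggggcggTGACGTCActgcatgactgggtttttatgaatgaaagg
Btg2 (chr13:48087854-48087921, minus strand): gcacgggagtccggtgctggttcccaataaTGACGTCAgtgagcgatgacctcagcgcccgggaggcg
Crem start 2 (chr17:58984711-58984778, plus strand): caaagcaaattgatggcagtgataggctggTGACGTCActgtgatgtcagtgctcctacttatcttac
Crem start 3 (chr17:58985425-58985489, plus strand): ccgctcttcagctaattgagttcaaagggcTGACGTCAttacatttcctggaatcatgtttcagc
Nr4a1 (chr7:134259888-134260119, plus strand): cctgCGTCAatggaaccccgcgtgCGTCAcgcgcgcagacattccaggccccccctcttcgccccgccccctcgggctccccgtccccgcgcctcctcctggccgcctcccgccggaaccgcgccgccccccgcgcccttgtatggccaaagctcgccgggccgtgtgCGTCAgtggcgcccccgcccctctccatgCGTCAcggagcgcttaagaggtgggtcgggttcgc

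Ier2, the member without a row, held the element too, 58 bases before its start. The EGR site GCGTGGGCG stood in Jund and Maff (6.06% of the 33 members, against 0.535% of all genes and 0.962% of expressed ones), the AP-1 site TGAGTCA in 0 members (4.42% and 3.19%), and TATAAA in 8 (24.2%, against 14.1% and 6.71%). These are matches of letters in 250 bases, and no binding was measured.

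The libraries had FPKM sums of 464587 to 489810 and estimated depths of 13000000 to 17230000 fragments, read from short loci whose low values are whole multiples of 1 fragment. At an FPKM of 1, a gene of 1 kb then rests on 13.0 to 17.2 fragments, and the exact 95% Poisson interval around the smallest of these is 6.92 to 22.2, for counting error only. The markers of cortical neurons were present in every rat. Summed FPKM over 6 glutamatergic neuron markers was 1457, 1582 and 812, over GABAergic markers 471, 518 and 264, over microglial markers 115, 155 and 256, over astrocyte markers 545, 636 and 731, over oligodendrocyte markers 5323, 6965 and 12114, over endothelial markers 58.3, 85.5 and 78.2 and over choroid plexus markers 3324, 129 and 13115. Rat 33 was lowest in the sums of both neuronal lists and highest in those of glia and choroid plexus. In bulk tissue, fewer cells of a type and less RNA per cell cannot be told apart.

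All 45 genes were above 0 in every rat. Of these, 17 had a mean FPKM of at least 10, 42 passed the filter of a mean FPKM of at least 1, and 16 lay above the median of the 13754 genes that passed it, a mean FPKM of 10.5. The genes below the filter were Npas4, Atf3 and Fosl1. Along the order of mean levels, 40 of the 44 pairs of neighbours had ranges over the rats that overlapped. Such overlap does not compare a pair of genes within each rat. Neighbours with overlapping ranges can still keep the same order in every rat, as Jun and Btg1 did. No other row of the tables overlapped the locus of any member.

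**Figure D1:**
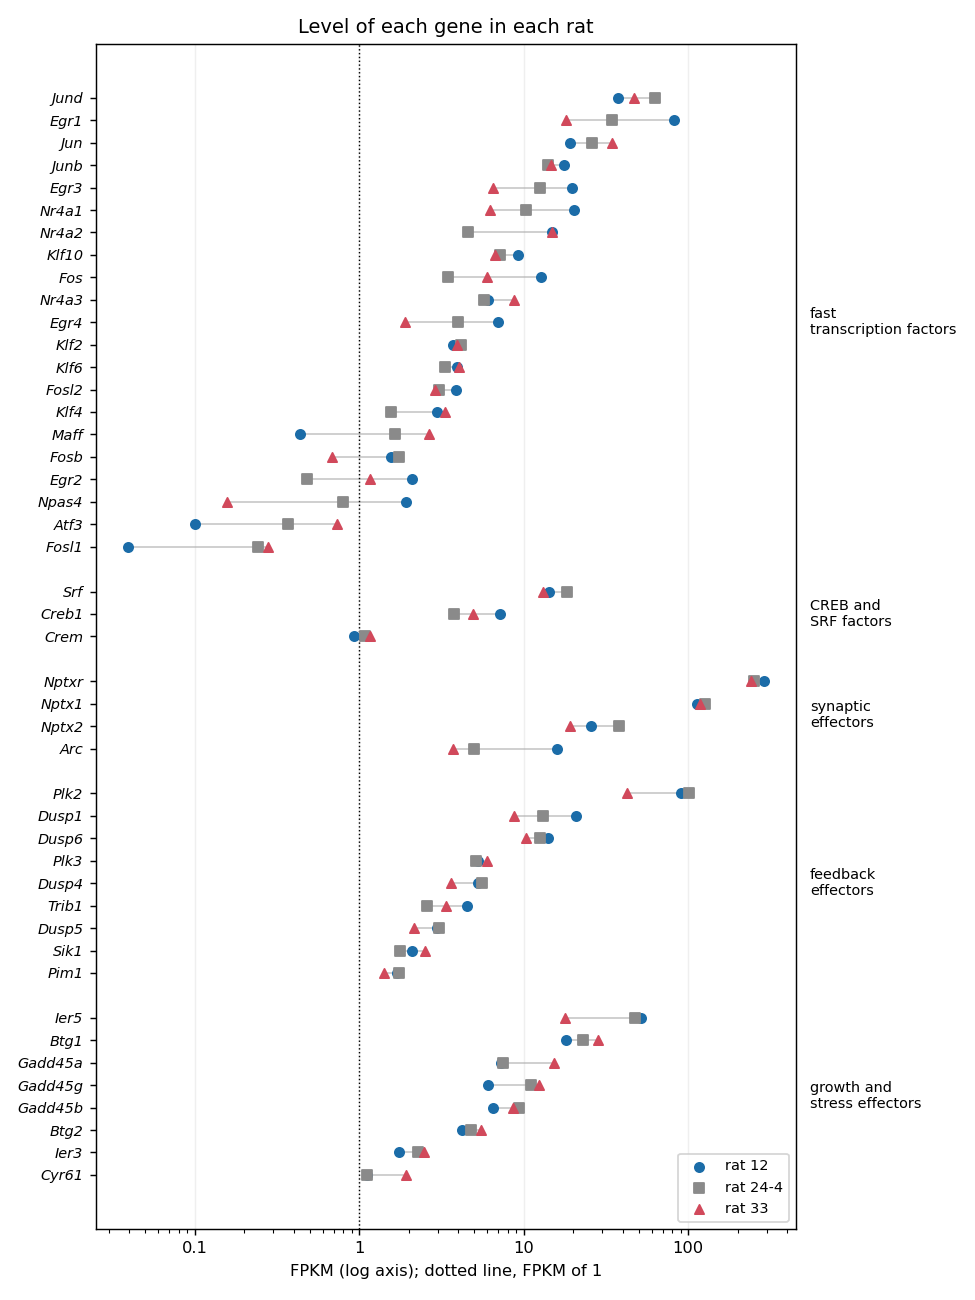
FPKM of each of the 45 genes in each rat on a log axis, grouped by role and ordered by mean within a role; a grey line joins the lowest and highest rat. Nptxr, with 241 to 289, lies at the top and Fosl1, with 0.0392 to 0.277, at the bottom, and Egr1, Arc, Npas4 and Maff have long lines while Nptx1, Klf2 and Plk3 have short ones.

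Among the fast transcription factors, the AP-1 genes were led by the Jun family. Jund, which encodes a constitutively made AP-1 subunit, had an FPKM of 37.3, 62.5 and 46.9. Jun, the founding member and a known neuronal injury gene, had 19.2, 25.8 and 34.6. Junb, often a brake on Jun, had 17.7, 14.1 and 14.7. Jund was above Jun in all 3 rats, by 0.86 ± 0.41 on the log2(FPKM + 1) scale (SD, n = 3 rats, as for every such difference below), but the rats differed in which was highest for each gene.

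Fos, the partner of the Jun proteins and the most used marker of recent activity, was lower than Jun and Junb. It had an FPKM of 12.8, 3.46 and 5.94, so that rat 12 stood above the other two. The differences of Jun minus Fos were 0.55, 2.59 and 2.36, and those of Junb minus Fos were 0.44, 1.76 and 1.18. Rat 12 therefore had the smallest distance of Fos to both partners.

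The other Fos genes had lower levels. Fosl2, which encodes Fra-2, had an FPKM of 3.85, 3.04 and 2.89. Fosb, whose product builds up under repeated stimulation, had 1.56, 1.74 and 0.679. Fosl1, which encodes Fra-1, had 0.0392, 0.244 and 0.277, and in rat 12 its value rests on at most 5.11 fragments even if the whole locus were counted. Fosl2 exceeded Fosb by 0.90 ± 0.33, in 3 of 3 rats.

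The EGR genes encode zinc finger factors that bind the GC-rich EGR site, and all 4 were highest in rat 12. Egr1 (chromosome 18, 27657628 to 27661429, plus strand, Rnor_6.0), also known as zif268, had an FPKM of 81.8, 34.2 and 18.2. Egr3, which acts in memory and muscle spindle development, had 19.6, 12.6 and 6.55. Egr4 had 6.97, 3.97 and 1.89, and in these 3 genes rat 33 was lowest. Egr2, better known from myelinating Schwann cells, had 2.09, 0.484 and 1.16, with rat 24-4 lowest. Egr1 exceeded Egr3 by 1.57 ± 0.38 and Egr3 exceeded Egr2 by 2.58 ± 0.71, each in 3 of 3 rats.

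Npas4, a factor induced by calcium entry in neurons and by few other stimuli, had an FPKM of 1.93, 0.801 and 0.156. Its highest value was 12.4 times its lowest, but in rat 33 it rests on at most 9.67 fragments, and with a mean of 0.963 it stayed outside the test. The rats had the same order as for Egr1, Egr3 and Egr4.

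The NR4A genes encode orphan nuclear receptors, and they did not share an order of rats. Nr4a1 (Nur77) had an FPKM of 20.2, 10.3 and 6.28. Nr4a2 (Nurr1) had 14.8, 4.59 and 14.9, so that rats 12 and 33 were level and rat 24-4 was low. Nr4a3 (NOR-1) had 6.05, 5.71 and 8.67. Nr4a1 minus Nr4a2 was accordingly 0.42, 1.01 and -1.13, without a common sign.

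The KLF genes, which encode zinc finger factors of many cell types including endothelium, had mean FPKM values below 10. Klf2, a flow-responsive endothelial gene, had an FPKM of 3.70, 4.17 and 3.93. Klf6 had 3.96, 3.31 and 4.02, Klf10 had 9.19, 7.22 and 6.65, and Klf4, which also acts in vessels and glia, had 2.97, 1.57 and 3.34. The widest of these, Klf4, differed 2.13-fold between its highest and lowest rat, and Klf2 1.13-fold. Klf6 exceeded Klf4 by 0.43 ± 0.29, in 3 of 3 rats.

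Atf3 and Maff, factors known from cell stress and nerve injury, were lowest in rat 12 and highest in rat 33. Maff, a small Maf protein, had an FPKM of 0.436, 1.64 and 2.65. Atf3 had 0.10, 0.370 and 0.728. Their order of rats was the reverse of that of Egr1 and Npas4, and it was also the order of Jun and Fosl1.

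The factors that act on these genes, rather than being induced first, were present at moderate levels. Srf had an FPKM of 14.2, 18.2 and 13.2 and Creb1 had 7.22, 3.78 and 4.90. Crem, whose inducible short product represses CREB targets, had 0.925, 1.08 and 1.17. Creb1 exceeded Crem by 1.58 ± 0.46 in 3 of 3 rats. The median of the 3 genes minus that of the fast transcription factors was 0.22, -0.05 and 0.23, which has no common sign (exact sign-flip p = 0.50).

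Of the synaptic effectors, Nptxr and Nptx1 ranked 1 and 2 in mean level among all 45 genes, while Nptx2 ranked 7 and Arc 19. Nptxr, the membrane-bound neuronal pentraxin receptor, had an FPKM of 289, 253 and 241. Nptx1, a secreted pentraxin that gathers AMPA receptors, had 112, 127 and 117, and Nptx2 (Narp), the most activity-dependent of the pentraxins, had 25.7, 38.2 and 19.2. Nptxr exceeded Nptx1 by 1.12 ± 0.20 and Nptx1 exceeded Nptx2 by 2.11 ± 0.42, so the order of the 3 genes held in 3 of 3 rats.

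Arc (chromosome 7, 115907097 to 115910541, minus strand, Rnor_6.0), which removes AMPA receptors from synapses, behaved unlike the pentraxins in its spread. It had an FPKM of 15.8, 4.99 and 3.72, with rat 12 far above the other two. Its highest value was 4.26 times its lowest, against 1.20 for Nptxr and 1.13 for Nptx1. Egr1 exceeded Arc by 2.30, 2.55 and 2.02, a difference with an SD of 0.27, although each of the genes spanned more than 4-fold. Arc exceeded Npas4 by 2.09 ± 0.40.

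The feedback effectors, which encode phosphatases and kinases that limit or redirect signalling, lay mostly below the median of tested genes. Plk2, a polo-like kinase that weakens overactive synapses, stood out with an FPKM of 90.8, 101 and 42.3, while Plk3 had 5.29, 5.12 and 5.95. Plk2 minus Plk3 was 3.52 ± 0.77 and smallest in rat 33. Dusp1, a phosphatase of nuclear MAP kinases, had 20.8, 13.1 and 8.69 and thus shared the order of Egr1. Dusp6, an ERK phosphatase, had 14.0, 12.5 and 10.4. Dusp6 minus Dusp1 changed sign between rats, at -0.53, -0.06 and 0.23.

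The remaining feedback genes had low levels and narrow ranges. Dusp4 had an FPKM of 5.24, 5.61 and 3.63 and Dusp5 had 2.96, 3.07 and 2.16; their difference was 0.64 ± 0.08. Trib1, a pseudokinase, had 4.49, 2.59 and 3.35. Sik1, a kinase that holds back CREB coactivators, had 2.09, 1.78 and 2.53, and the kinase gene Pim1 had 1.70, 1.74 and 1.42. None of these 5 genes spanned more than 1.74-fold.

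Growth and stress effectors were lowest in rat 12 for 6 of the 8 measured genes (75.0%), against 37.9% of all tested genes. The mitochondrial genome took its largest share of the FPKM sum in rat 12, at 26.6%, which lowers other values there. This count was not repeated with the mitochondrial genome left out. Gadd45a, a DNA damage and demethylation gene, had an FPKM of 7.24, 7.47 and 15.3. Gadd45g had 6.03, 11.1 and 12.5, and Gadd45b, the member most tied to neuronal activity, had 6.51, 9.32 and 8.57. The antiproliferative genes Btg1 and Btg2 had 18.04, 22.8 and 28.2 and 4.19, 4.79 and 5.49. Btg1 exceeded Btg2 by 2.03 ± 0.15 in 3 of 3 rats, one of the tightest differences measured.

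Ier3, a survival gene, had an FPKM of 1.73, 2.27 and 2.47. Cyr61, a secreted matrix protein gene of vessels and fibroblasts, had 1.12, 1.11 and 1.94. Ier5, a regulator of heat shock factor, went the other way with 51.8, 47.3 and 17.9. Of these 8 genes, 6 were highest in rat 33 (75.0%, background 42.0%), and Ier5 was the single gene lowest there.

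Fast transcription factors were then compared with effectors inside each library. The median log2(FPKM + 1) was 2.82, 2.31 and 2.33 over the 21 fast factors and 2.91, 3.08 and 3.26 over the 21 measured effectors, against 3.45, 3.43 and 3.56 over all tested genes. Fast factors minus effectors gave -0.09, -0.77 and -0.93, a mean of -0.60 ± 0.45. All 3 differences were below 0, with an exact two-sided sign-flip p = 0.25, the smallest value that 3 rats allow, so that no such difference can pass 0.05. The filter left out the low fast factors Fosl1, Atf3 and Npas4 and no effector, so it could only raise the median of the fast factors. Over the 18 fast factors that passed it, the differences were 0.26, -0.66 and -0.43, a mean of -0.27 ± 0.48 (exact sign-flip p = 0.50). Only rat 12 changed sign. In rat 12 the fast factors were then the higher role, and in the other two the effectors were higher either way.

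**Figure D2:**
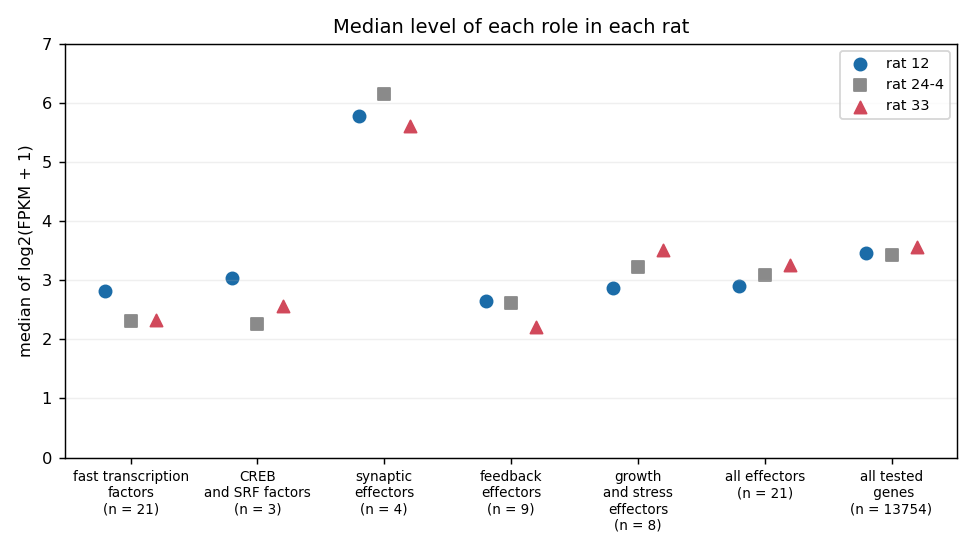
Median log2(FPKM + 1) over the measured genes of each role in each rat, with all effectors together and all tested genes at the right. Synaptic effectors lie highest, at 5.61 to 6.15, fast transcription factors are highest in rat 12, and growth and stress effectors are lowest there.

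Roles were also compared inside the effectors. Synaptic effectors exceeded feedback effectors by 3.14, 3.53 and 3.40, a mean of 3.36 ± 0.20, in 3 of 3 rats (exact sign-flip p = 0.25). Growth and stress effectors had medians of 2.86, 3.22 and 3.50, and feedback effectors of 2.64, 2.61 and 2.21. Arc, 1 of the 4 synaptic effectors, had 4.07, 2.58 and 2.24. It was thus near the feedback median in rats 24-4 and 33, and the difference between these roles there does not hold for Arc. Of the 18 pairs of genes compared within families or roles, 15 had one sign in all rats, each with an exact sign-flip p = 0.25 (0.30 adjusted over the 18 pairs). Nr4a1 with Nr4a2, Dusp6 with Dusp1 and Gadd45g with Gadd45a were the exceptions, with an exact p of 0.75 to 1.

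The spread between rats was tested for all 13754 genes with limma, as residual variance over that of genes of like level. No member passed at an adjusted p under 0.05 (0 of 42, background 0.102%, that is 14 of 13754 genes). The smallest adjusted p among members was 0.555, for Egr1, with an unadjusted p of 0.0103. At an unadjusted p under 0.05 there were 6 members of 42 (14.3%), against a background of 5.96%. Without a filter on low values there were 2 of 45, Arc and Egr1, against a background of 4.55%. With the filter they were Egr1, Arc (0.0184), Nr4a2 (0.0261), Ier5 (0.0363), Nr4a1 (0.0423) and Fos (0.0428), and none of these holds after adjustment over all genes by limma. Without rat 12 this list was Ier5, Nr4a2 and Plk2, and without rat 33 it was Arc, Egr1, Egr2, Fos and Nr4a2.

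The width of the range was described next. The highest rat was at least 2-fold above the lowest for 10 of the 18 tested fast factors (55.6%) and for 6 of the 21 effectors (28.6%), against a background of 30.0% of tested genes. The median fold between highest and lowest rat was 2.35 for fast factors, 1.55 for effectors and 1.63 for all tested genes. These are descriptions without a test, and 3 low fast factors are not in the count because of the filter. The 10 wide fast factors include Fosb, Egr2, Klf4 and Maff, with low mean FPKM values of 1.33, 1.25, 2.63 and 1.58. Such genes rest on fewer fragments, and the background was not matched for level.

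**Figure D3:**
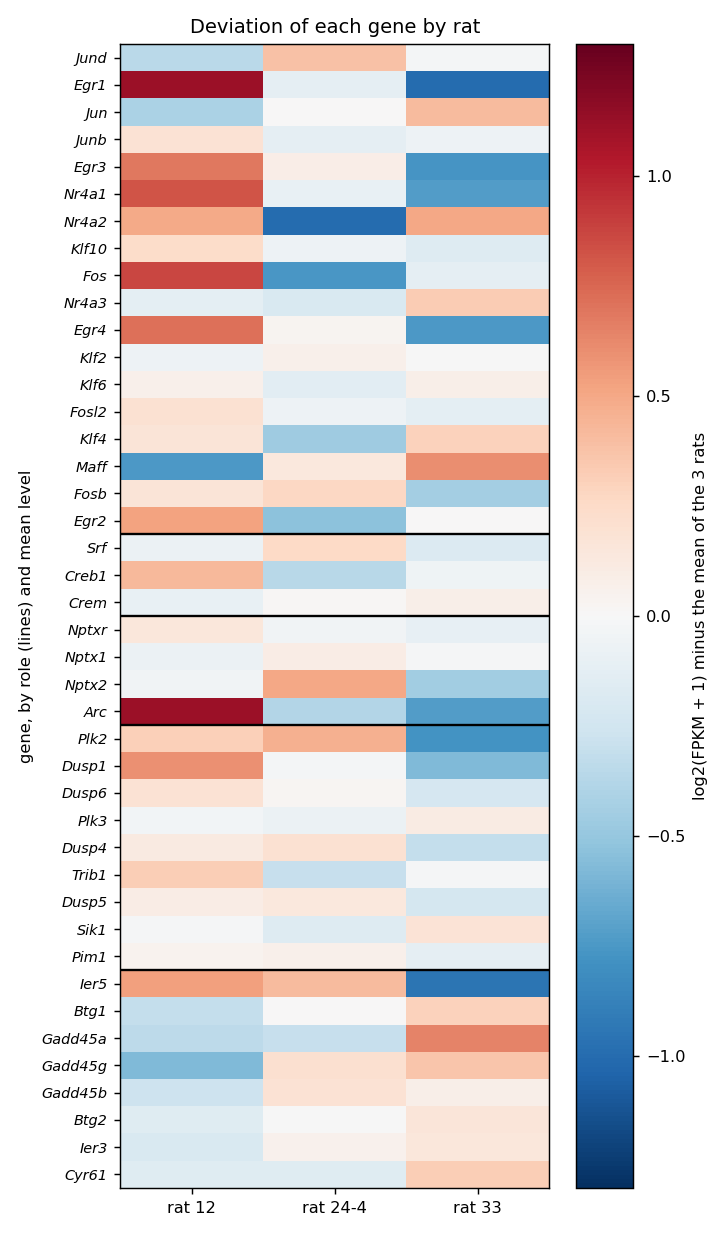
Difference of log2(FPKM + 1) from the mean of the 3 rats for the 42 tested genes, with red above and blue below the mean and black lines between roles. Egr1, Egr3, Egr4, Nr4a1, Arc and Dusp1 go from red in rat 12 to blue in rat 33, and Jun, Maff, Gadd45a and Btg1 go from blue to red.

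Each gene was then described by the rat in which it was highest. Rat 12 was highest for 9 of the 18 tested fast factors (50.0%), against a background of 23.8%, and for 6 of the 21 effectors (28.6%). Rat 24-4 was highest for 11 of the 42 members (background 34.2%), and rat 33 was highest for 15 (35.7%, background 42.0%). Rat 33 was lowest for 18 of 42 (42.9%, background 28.9%), and rats 12 and 24-4 for 12 each (28.6%, background 37.9% and 33.3%).

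The full order of the rats was then counted. The order 12, 24-4, 33 was found in 11 of 42 members (26.2%), against a background of 11.2%. These were Fosl2, Egr1, Egr3, Egr4, Nr4a1, Klf10, Arc, Nptxr, Dusp1, Dusp6 and Ier5. The reverse order, 33, 24-4, 12, was found in 8 members (19.0%, background 21.3%), namely Jun, Maff, Crem, Gadd45a, Gadd45g, Btg1, Btg2 and Ier3. The other orders held 5 members (12, 33, 24-4; background 12.6%), 7 (24-4, 12, 33; 17.7%), 4 (24-4, 33, 12; 16.6%) and 7 (33, 12, 24-4; 20.7%). With every library rescaled to the same median, 34 of the 42 members had the same order as before. The share of all tested genes that did so was not counted. The order 12, 24-4, 33 then held 12 members against 13.5% of all tested genes.

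**Figure D4:**
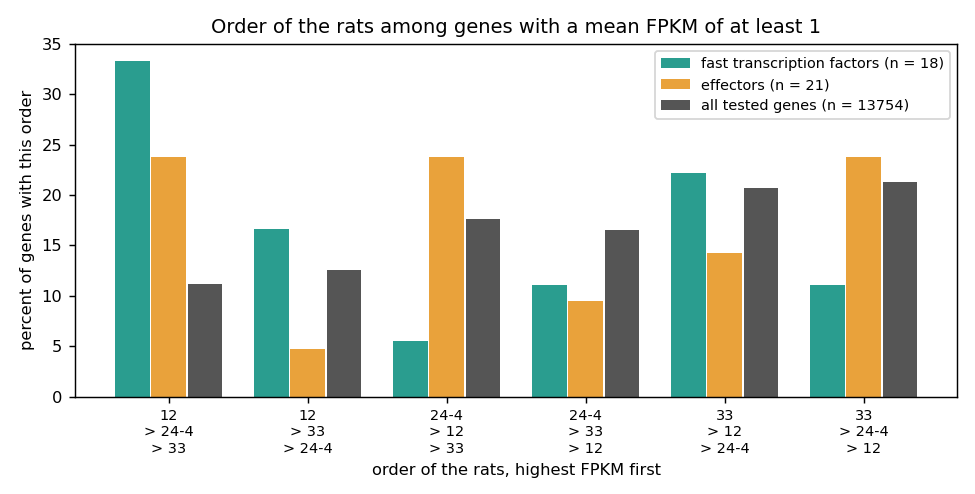
Percent of tested fast transcription factors (18), effectors (21) and all tested genes (13754) with each of the 6 possible orders of the rats, highest FPKM first. The order 12, 24-4, 33 held 33.3% of fast factors and 23.8% of effectors against 11.2% of all tested genes.

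Holders of either promoter element were highest in different rats. Of the CArG box genes, Egr1 and Egr2 were highest in rat 12, Srf and Dusp5 in rat 24-4 and Klf6 in rat 33. Among genes with the full cyclic AMP response element, Dusp1 was highest in rat 12, Plk2 and Jund in rat 24-4, and Maff, Btg2 and Crem in rat 33.

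Neuronal markers were mostly lowest in rat 33. Of the 6 measured glutamatergic markers, none at 0, 5 were lowest there (background 28.9%). The order 12, 24-4, 33 was found in 4 of these 6 (background 11.2%). All 6 GABAergic markers were lowest in rat 33, and 4 had the same order. The sums of both neuronal lists were highest in rat 24-4. All 6 microglial markers had the order 33, 24-4, 12 (background 21.3%), as did 4 of 6 oligodendrocyte markers and 3 of 6 astrocyte markers. The part of tissue composition in the members' orders was not tested.

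Each gene was also set over the glutamatergic marker sum of its own library, an alternative chosen after the values were seen; it applies 1 factor per library and measures no share of cells. Per 1000 FPKM of those markers, Egr1 had 56.1, 21.6 and 22.4, Egr3 had 13.4, 7.96 and 8.06, and Arc had 10.9, 3.15 and 4.58. In these 3 genes rat 12 was highest, and rats 24-4 and 33 were close for Egr1 and Egr3. Nr4a1 had 13.9, 6.50 and 7.73, Egr4 had 4.79, 2.51 and 2.33, and Plk2 had 62.4, 63.9 and 52.1. Jun became more unequal, with 13.2, 16.3 and 42.6, as did Gadd45a with 4.97, 4.72 and 18.9. The libraries were multiplied by 0.881, 0.811 and 1.58 relative to each other on this scale, so that rat 33 was raised. Of the 42 members, 20 had the same order as on FPKM, 30 were highest in rat 33, 9 in rat 12 and 3 in rat 24-4. Of the 16 that were highest in rat 12 on FPKM, 9 were so on this scale too, and 7 (Fosl2, Junb, Klf10, Creb1, Nptxr, Dusp6 and Trib1) were highest in rat 33. Egr2, among the 9, was nearly level between rats 12 and 33, at 1.44 and 1.43 per 1000 FPKM of the markers. Of all tested genes, 45.9% had the order 33, 12, 24-4 and 44.2% the order 33, 24-4, 12. The orders 12, 24-4, 33 and 12, 33, 24-4 held 2.36% and 3.93% of them. The orders 24-4, 12, 33 and 24-4, 33, 12 held 1.32% and 2.28%. How many of all tested genes kept their order on this scale was not counted. Nor was it counted how many of those highest in rat 12 on FPKM stayed so. The 9 of 16 therefore has no background and cannot be read as a trait of the members.

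**Figure D5:**
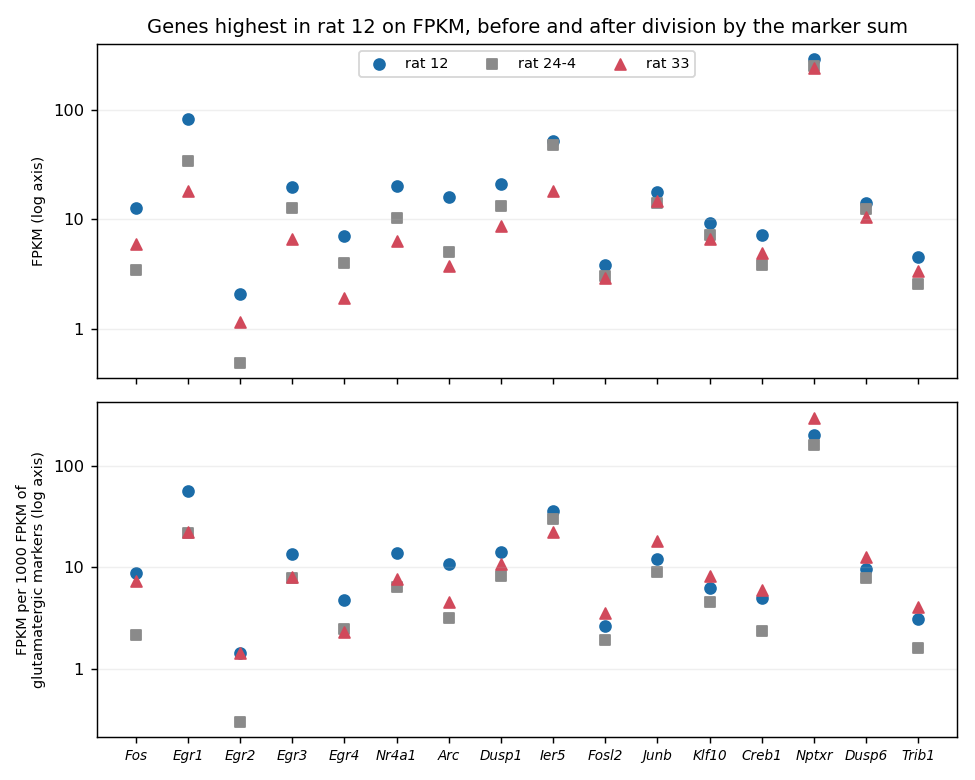
FPKM (upper panel) and FPKM per 1000 FPKM of glutamatergic markers (lower panel) in each rat, both on log axes, for the 16 tested genes chosen because rat 12 was highest on FPKM. The first 9 genes from the left are highest in rat 12 in both panels, and the other 7 are highest in rat 33 in the lower panel.

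Other activity-regulated genes were described in the same way. Of 20 such names 19 were measured, and all passed the filter. By limma 0 passed the adjusted p (background 0.102%), and 2 had an unadjusted p under 0.05 (background 5.96%). Arl4d, a small GTPase gene, had an FPKM of 14.9, 11.7 and 3.67, and the cyclin gene Ccnl1 had 6.19, 7.27 and 19.4. The order 12, 24-4, 33 was found in 6 of the 19 (31.6%, background 11.2%). Among them were Homer1, a postsynaptic scaffold gene with 21.3, 10.9 and 8.51, and Rgs2, a brake on G protein signalling with 39.3, 27.0 and 21.9. The reverse order was found in 5 (26.3%, background 21.3%), among them Scg2, a secretory granule gene with 51.1, 57.7 and 104. Bdnf, the neurotrophin gene, had 2.74, 1.15 and 3.92.

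Upstream signalling genes were mostly lowest in rat 33. That held for 12 of the 19 measured genes of 20 listed (63.2%, background 28.9%). The order 12, 24-4, 33 was found in 7 of the 19 (36.8%, background 11.2%). Mef2c, a neuronal transcription factor, had an FPKM of 41.0, 18.7 and 3.99, and Camk4, the nuclear kinase that acts on CREB, had 17.8, 7.86 and 2.47. Elk4, a partner of SRF, had 5.18, 0.917 and 7.47, lowest in rat 24-4 as Fos and Nr4a2 were. These 3 genes of the 19 had unadjusted limma p-values under 0.05 (background 5.96%), and 0 of the 19 passed after adjustment (background 0.102%). Cacna1c, which encodes an L-type calcium channel subunit through which activity reaches the nucleus, had 4.46, 4.77 and 4.80.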

How the data were processed

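Messenger RNA of 3 rats was sequenced, 1 library each. The deposited FPKM values were made by the authors from normalized fragment counts with a script, as the design text of the series states, and were used unaltered. Per the submitters' processing notes, HISAT2 2.0.4, StringTie 1.3.0 and the build Rnor_6.0 were involved. Sources used here do not give the normalization, the strand setting or a batch. Because FPKM is scaled to the library, abundant transcripts lower all others. The mitochondrial genome took 26.6%, 14.4% and 20.9% of the FPKM sum in rats 12, 24-4 and 33, so it lowered other values most in rat 12. The orders of the rats were not counted with the mitochondrial genome left out. Depth was estimated from values of at most 10 fragments at loci of at most 400 bp, of which 93.1% to 93.4% came out whole within 0.02.

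The scale was log2(FPKM + 1), on which differences of low genes are understated. Tests across genes used 13754 genes whose FPKM averaged 1 or more. For each gene limma 3.58.1 (R 4.3.3) fitted an intercept, with a trended, robust prior; residual over prior variance was compared with F, one-sided, with Benjamini-Hochberg adjustment and a threshold of 0.05. The step was tested on simulated data, where it seldom called genes with 1 rat 4-fold apart, so that a count of 0 says little about genes of the range seen here. Comparisons within rats used exact sign-flip tests. The rest was run in Python 3.11.15 with pandas 2.3.3, numpy 2.4.6, scipy 1.17.1 and matplotlib 3.10.9. The members, roles and lists were chosen with earlier results of these data known. All members are named, with each rat's value for the 45 that have a row. The lists of other genes are given by counts with examples chosen after their values were seen. P-values rest on these 3 animals only, with 1 library each, so spread between animals and spread between libraries cannot be told apart. The limma p sets the spread of a gene against that of genes of like level. The sign-flip p asks whether a difference within rats is centred on 0. RefSeq promoters of GRCr8 served for sequences only.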

Additional observations from a re-analysis of the deposited data

How the results depend on the processing

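No member passed the limma threshold under any of the 9 alternatives. The count over all genes, 14, was 23 with a pseudocount of 0.1, 54 with libraries rescaled to the same median, and 0 when the filter was lowered to 0.1 or dropped, with a prior that is not robust or with the mitochondrial genome left out; leaving out 1 rat gave 0 to 104. The cause was not tested. The mean of fast transcription factors minus effectors, -0.60, was -0.27 over members with a mean FPKM of 1 or more, where rat 12 changed sign, -0.35 without Jund, Nptx1, Nptxr and Btg1, and -0.89 with means in place of medians; leaving out 1 rat gave -0.85 to -0.43. Synaptic minus feedback effectors ranged from 2.78 to 3.58 over its alternatives. Members with an unadjusted p under 0.05 numbered 2 to 8 against 6. CREB and SRF factors minus fast factors turned to -0.19 over members with a mean FPKM of at least 1 and to -0.075 with means in place of medians. With 1 rat left out, Nr4a1 minus Nr4a2 ranged from -0.35 to 0.72, Dusp6 minus Dusp1 from -0.30 to 0.084 and Gadd45g minus Gadd45a from -0.25 to 0.14. The median deviation of members from the mean of the rats was 0.11, 0.00041 and -0.04 in rats 12, 24-4 and 33, against -0.06, 0.01 and 0.07 over all tested genes. It became -0.086, -0.34 and 0.45 with libraries divided by the glutamatergic marker sum, which moves all tested genes alike (-0.27, -0.31 and 0.60), and for rat 12 it was 0.028 to 0.10 with another rat left out. No paired analysis was possible because there is 1 group. Every member except Ier2, which has no row, has 1 row, so keeping 1 row per name changed no member's value. Genes near an FPKM of 1 rest on few fragments, which limits Npas4, Atf3 and Fosl1 most.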
